A study of Mus musculus with 7 samples.

Results

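MiR-122 is the dominant microRNA of hepatocytes, and 10 transcripts that are widely reported as its direct targets were followed here: Aldoa, Ndrg3, Slc7a1, Gys1, P4ha1, Tmed3, Cd320, Bckdk, Agpat1 and Mapre1. They were picked by name, from general knowledge of miR-122, but with earlier results of these data known. They were read out of a table of 12151 genes by gene symbol. That table holds 9 of the 10. Slc7a1, a carrier of arginine and lysine, has no row in it and is not analysed here. The libraries hold messenger RNA of mouse hepatocytes freed from the liver, 3 of them wild-type (WT) and 4 labelled ALAS1/2-KO. The genes Alas1 and Alas2 encode the synthases that make aminolevulinic acid, the first committed product of heme synthesis. The label ALAS1/2-KO stands for an Alas1 allele whose exons 4 and 5 can be deleted by an inducible Cre, together with Alas2 lowered with a small interfering RNA joined to GalNAc, a sugar that hepatocytes take up. The series asks whether ALAS1 restrains silencing by small RNAs apart from its role in heme synthesis. Tamoxifen is named as the treatment of all 4 ALAS1/2-KO libraries and none is named for WT, and whether WT mice received an interfering RNA is not stated, so genotype, tamoxifen and interfering RNA cannot be told apart. The driver of the Cre, the strain, the age and the sex of the mice are likewise not stated. The labels do not say that libraries of a group came from separate animals. The p-values therefore reflect differences among these 7 libraries that may be technical.

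A microRNA is loaded into an Argonaute protein and pairs, through the seed near its 5′ end, with short complementary sites that lie mostly in the 3′ UTR of a messenger RNA. The Argonaute complex then recruits TNRC6 proteins, which shorten the poly(A) tail, block translation and speed decay of the transcript. In mouse liver, blocking or deleting miR-122 raises transcripts such as Aldoa and Ndrg3, so stronger silencing is read from lower levels of such targets and weaker silencing from higher levels.

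WT libraries held 22916097 to 34048680 reads and ALAS1/2-KO libraries 27933939 to 30195635. Values are given as CPM, reads scaled to library size, in which 1 read was worth 0.0293 to 0.0522 CPM. Alas2 fell from 11.3 ± 5.18 CPM (SD, n = 3) in WT to 0.44 ± 0.258 CPM (SD, n = 4), a log2 fold change of -4.51 (limma adjusted p = 0.0027). Alas2 is also a red cell gene, and red cell transcripts were lower beside it, with log2 fold changes of -2.37 for Hba-a1, -2.02 for Hbb-bs and -2.46 for Hbb-bt. All 5 red cell markers, Alas2 included, were lower at an unadjusted p under 0.05, where 23.7% of all genes passed that level in either direction. The part of red cells in the fall of Alas2 was not tested. Alas1 stood at 209 ± 109 CPM in WT against 322 ± 31.7 in ALAS1/2-KO (log2 fold change 0.80, limma adjusted p = 0.277). WT replicate 3 was far below the others, with 279.5, 265 and 83.5 CPM in WT replicates 1 to 3. ALAS1/2-KO replicates 1 to 4 measured 287, 332, 307 and 361 CPM. A value of Alas1 summed over the whole gene does not check the loss of 2 exons. The summed level of 8 hepatocyte markers other than albumin was 20083 to 22205 CPM in WT against 24710.3 to 26735 CPM in ALAS1/2-KO, so the cell type on the label was present in every library. Not every marker in that sum was higher. Cyp2e1, 1 of the 8, stood at 2941 ± 559.6 CPM in WT against 1971 ± 588 in ALAS1/2-KO (limma adjusted p = 0.205). Albumin itself fell from 97897 ± 3431 to 53409 ± 2537 CPM (limma adjusted p = 0.00606). Mitochondrial transcripts took 31.9% to 43.2% of reads in WT and 16.8% to 27.3% in ALAS1/2-KO. Of 12105 genes tested with limma, 617 were called at an adjusted p under 0.05, 352 higher (2.91%) and 265 lower (2.19%).

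The sites through which miR-122 could pair were read from the longest annotated 3′ UTR of each gene (mm10, GENCODE M21). The letters searched, on the transcript's strand, were ACACTCCA (an 8mer), ACACTCC not followed by A (7mer-m8) and CACTCCA not preceded by A (7mer-A1), each counted once in its longest form. Over the 11381 listed genes with a 3′ UTR, 3.24% had an 8mer, 5.73% a 7mer-m8 at best, 7.05% a 7mer-A1 at best, and 16.0% had any of them. Of the 9 targets, 8 held at least 1 site. The exception was Ndrg3, whose 7mer-m8 lies in a shorter alternative UTR. The windows below, 30 bases each from the transcript strand, 5′ to 3′, are shown because they are the point of contact with the microRNA. Capitals mark the letters that match.
Aldoa 8mer: ctgctccatcaACACTCCAggcccctgcct
Gys1 8mer: ctctgtttcagACACTCCAgcccttgagct
P4ha1 8mer, first: acagctgactaACACTCCAtgattaattgg
P4ha1 8mer, second: cacgtgaggaaACACTCCAtctctgggcct
Cd320 7mer-m8: tggggtcctcagACACTCCcgctgtatgtg
Bckdk 7mer-m8: ggctagcctgccACACTCCtcggaggacct
Agpat1 7mer-m8: aagctgcacctgACACTCCtcacaggctca
Ndrg3 7mer-m8, shorter UTR: aaggtttttcacACACTCCttgctttctgc
Tmed3 7mer-A1: atctgatctttgCACTCCAacaacggaagc
Mapre1 7mer-A1: atccgaagtcttCACTCCAaatcatgtgct

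On mm10, the Aldoa window lies at chr7:126795372-126795401 on the minus strand and the Gys1 window at chr7:45455500-45455529 on the plus strand. The P4ha1 windows lie at chr10:59371148-59371177 and chr10:59372843-59372872, both on the plus strand. The Cd320 window is chr17:33848587-33848616, the Bckdk window chr7:127908327-127908356 and the Agpat1 window chr17:34612873-34612902, all on the plus strand. The Ndrg3 window is chr2:156927421-156927450 and the Tmed3 window chr9:89699602-89699631, both on the minus strand, and the Mapre1 window is chr2:153766954-153766983 on the plus strand. All of them are exonic 3′ UTR sequence.

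The targets thus differ in how they could pair. Aldoa, Gys1 and P4ha1 hold an 8mer, and P4ha1 holds 2. Cd320, Bckdk and Agpat1 have a 7mer-m8 as the longest match, and Cd320 holds 2. Tmed3 and Mapre1 have a single 7mer-A1. The members carry 14 sites in all, and 11 of these start within the first 200 bases after the stop codon. The UTRs run from 185 bases in Aldoa to 6380 bases in Mapre1, against a median of 1174 bases over all genes with a UTR. A match of letters is a description of the sequence and does not show that the site is used in these cells.

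**Figure D1:**
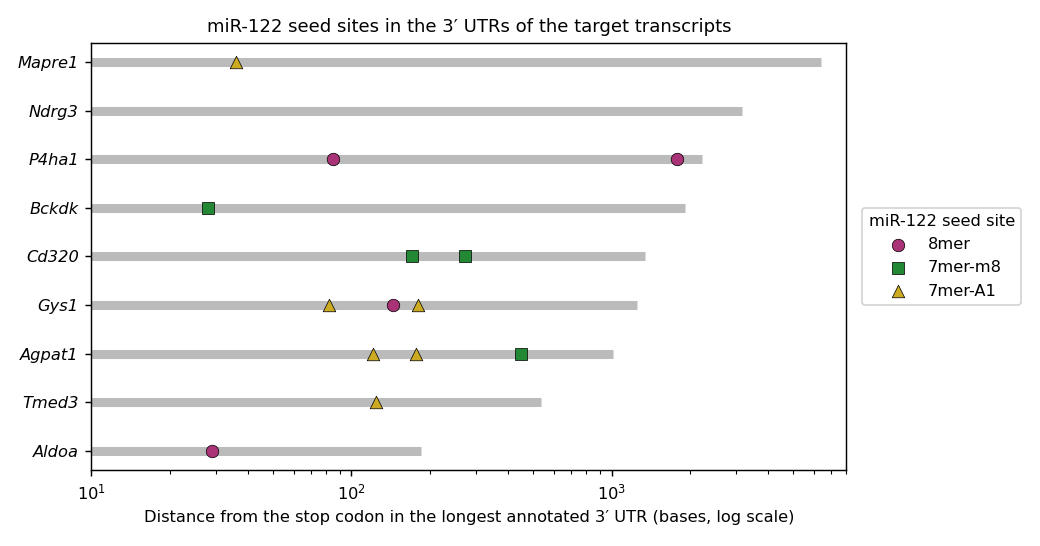
Position of each miR-122 seed match in the longest annotated 3′ UTR of the 9 target genes, with distance from the stop codon in bases on a log axis that starts at 10. Grey bars are the UTRs and symbols mark the site type. Of the 14 sites, 11 lie within the first 200 bases, and Ndrg3 has none in this UTR.

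None of the 9 targets passed the test between WT and ALAS1/2-KO hepatocytes (0 of 9, where 5.10% of all genes tested were called), and limma voom on the recovered reads called 0 as well. At an unadjusted p under 0.05 there was 1, Mapre1, which was lower, where 23.7% of all genes passed that level. The log2 fold change, ALAS1/2-KO over WT, was above 0 for 7 of 9 targets, against 48% of all genes. Its median over the targets was 0.09, with a range from -0.38 to 0.33, and the median over all genes was -0.02.

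Sugar metabolism is represented by Aldoa and Gys1. Aldoa (ENSMUSG00000030695.16, chr7:126795234-126800751, minus strand) encodes an aldolase of glycolysis. It measured 55.3, 50.1 and 46.8 CPM in the 3 WT libraries and 44.4, 54.3, 64.9 and 59.2 CPM in the 4 ALAS1/2-KO libraries. The groups overlapped: ALAS1/2-KO replicate 1 was the lowest of all 7 libraries, and replicates 3 and 4 were above every WT library. The log2 fold change was 0.12 (SE 0.14, 95% interval -0.19 to 0.44, limma adjusted p = 0.623). Processed copies of Aldoa elsewhere in the genome can take or lend reads, so its level is uncertain to that extent.

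Gys1 (ENSMUSG00000003865.16, chr7:45434844-45456619, plus strand) encodes the glycogen synthase of muscle and most other tissues. It measured 1.83, 1.75 and 1.82 CPM in WT against 1.72, 2.00, 2.96 and 2.61 in ALAS1/2-KO, from 35 to 97 reads per library. WT libraries were nearly equal, whereas the ALAS1/2-KO libraries fell on both sides of them. The log2 fold change of 0.33 was the highest of the targets, with an interval from -0.24 to 0.89 (SE 0.25, limma adjusted p = 0.455). The exons of Gys1 overlap those of Ruvbl2 on the other strand by 310 bases, and how strand was handled in counting is not given, so reads of the overlap cannot be assigned.

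Gys2, the liver glycogen synthase and paralog of Gys1, measured 113, 72.8 and 55.7 CPM in WT against 151, 178, 179.6 and 185 in ALAS1/2-KO. It rose 2.24-fold, and the groups did not overlap (log2 fold change 1.16, SE 0.22, limma adjusted p = 0.0283). That call was lost without WT replicate 2 or 3 (adjusted p = 0.132 and 0.053) and without ALAS1/2-KO replicate 2, 3 or 4 (0.0622, 0.0579 and 0.0715). It was the 1 call among 6 genes listed for aldolases and glycogen synthesis.

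Beside the missing Slc7a1, 3 genes of cationic amino acid transport and use were in the table and 0 were called. Arg1, the arginase of the urea cycle, stood at 522 and 472 CPM, WT first, and the liver carrier Slc7a2 at 189 and 299.7 CPM (limma adjusted p = 0.0897).

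P4ha1 and Tmed3 act in the secretory pathway. P4ha1 (ENSMUSG00000019916.14, chr10:59323296-59373304, plus strand) encodes the catalytic subunit of the hydroxylase that modifies prolines in collagen. It measured 12, 10.4 and 10.1 CPM in WT against 10.4, 7.39, 14.2 and 14.1 in ALAS1/2-KO. The ALAS1/2-KO libraries spread widely around WT, with replicate 2 below and replicates 3 and 4 above every WT library. This gave a log2 fold change of 0.05 (SE 0.23, 95% interval -0.48 to 0.57, limma adjusted p = 0.92). It is the target with 2 8mers. P4hb, the partner subunit, stood at 1087 ± 75.2 CPM in WT against 1171 ± 73.4 in ALAS1/2-KO, and Plod1, a lysyl hydroxylase of collagen, at 56.5 and 46.8 CPM. Of 6 listed collagen and hydroxylase genes 0 were called, and 2 were lower at an unadjusted p under 0.05, where 23.7% of all genes passed that level. These were Col1a1 and Col3a1, which are also counted among the stellate markers below.

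Tmed3 (ENSMUSG00000032353.9, chr9:89699206-89705068, minus strand) belongs to the cargo receptors that travel between endoplasmic reticulum and Golgi. It measured 10.9, 10.6 and 11.6 CPM in WT against 12.3, 10.6, 10.7 and 13.6 in ALAS1/2-KO. Replicates 1 and 4 of ALAS1/2-KO were above WT and the other two lay within the WT range. Its log2 fold change was 0.09 (SE 0.12, 95% interval -0.18 to 0.37, limma adjusted p = 0.677). None of the 8 other receptors of this family in the table was called or passed an unadjusted p under 0.05. Tmed10 stood at 104 and 102 CPM, WT first, and Tmed5 at 80.5 and 105 CPM.

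Bckdk, Cd320 and Agpat1 serve the metabolism of amino acids, vitamin B12 and lipids. Bckdk (ENSMUSG00000030802.14, chr7:127904082-127910221, plus strand) encodes the kinase that switches off the branched-chain ketoacid dehydrogenase. It measured 7.67, 7.14 and 8.49 CPM in WT against 6.26, 6.96, 7.91 and 8.21 in ALAS1/2-KO. Replicates 1 and 2 of ALAS1/2-KO were below WT and replicates 3 and 4 lay within its range. The fitted log2 fold change was -0.09 (SE 0.14, 95% interval -0.41 to 0.23, limma adjusted p = 0.744). The opposing phosphatase Ppm1k fell from 34.3 ± 1.68 CPM in WT to 19.8 ± 3.60 CPM in ALAS1/2-KO (log2 fold change -0.81, SE 0.15, limma adjusted p = 0.0234), the only call among 6 genes of this enzyme complex and its partners. The Ppm1k call was lost without any 1 of the WT replicates (adjusted p = 0.071, 0.12 and 0.0563 without replicates 1, 2 and 3), without ALAS1/2-KO replicate 4 (0.0513) and with CPM from listed reads (0.0715).

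Cd320 (ENSMUSG00000002308.16, chr17:33843091-33849774, plus strand) encodes the receptor that takes up vitamin B12 bound to transcobalamin. It measured 2.56, 2.10 and 1.96 CPM in WT against 1.78, 1.97, 2.32 and 3.50 in ALAS1/2-KO, from 49 to 106 reads per library. Replicate 4 of ALAS1/2-KO stood above all other libraries, and replicate 1 below them. The log2 fold change was 0.07 (SE 0.27, 95% interval -0.55 to 0.70, limma adjusted p = 0.892). Of 9 genes listed for B12 uptake and use, 0 were called and 2 were higher at an unadjusted p under 0.05. Of all genes, 23.7% passed that level in either direction. Tcn2, the transport protein that Cd320 binds, stood at 119 and 142 CPM, WT first, and Mmut, a B12-dependent mutase, at 63.7 and 76.7 CPM.

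Agpat1 (ENSMUSG00000034254.17, chr17:34604262-34613449, plus strand) encodes an acyltransferase that makes phosphatidic acid on the way to triglycerides and phospholipids. It measured 9.86, 10.4 and 9.69 CPM in WT against 10.4, 10.3, 13.1 and 12.7 in ALAS1/2-KO. Replicates 1 and 2 of ALAS1/2-KO were at the upper end of WT and replicates 3 and 4 stood above it. This gave a log2 fold change of 0.21 (SE 0.12, 95% interval -0.07 to 0.50, limma adjusted p = 0.344). Its exons overlap those of Egfl8 on the other strand by 101 bases, with the same limit on counting. Gpam, which catalyses the preceding acylation, rose from 75.5 ± 1.81 to 105 ± 8.05 CPM (log2 fold change 0.47, SE 0.10, limma adjusted p = 0.0325), 1 of 6 listed genes of the pathway. The Gpam call held only without ALAS1/2-KO replicate 1, and leaving out any other library gave adjusted p between 0.0519 and 0.134.

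Ndrg3 and Mapre1 complete the set. Ndrg3 (ENSMUSG00000027634.14, chr2:156927345-156992056, minus strand) encodes an oxygen- and lactate-responsive protein of the NDRG family. It measured 11.6, 13.1 and 12.4 CPM in WT against 11.4, 13.8, 14.0 and 14.6 in ALAS1/2-KO. Replicate 1 of ALAS1/2-KO was the lowest library and the other 3 stood above WT. Its log2 fold change was 0.12 (SE 0.12, 95% interval -0.15 to 0.39, limma adjusted p = 0.574). Its relative Ndrg2 stood at 660.1 and 642 CPM, WT first, and Ndrg1 at 15 and 9.06 CPM (limma adjusted p = 0.0864). Thus 0 of 2 relatives were called and 1 was lower at an unadjusted p under 0.05, where 23.7% of all genes passed that level.

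Mapre1 (ENSMUSG00000027479.14, chr2:153741274-153773310, plus strand) encodes EB1, which tracks the growing ends of microtubules. It measured 21.6, 22.9 and 26.3 CPM in WT against 15.8, 19.7, 19.0 and 18.2 in ALAS1/2-KO. Every ALAS1/2-KO library was below every WT library. Groups that do not overlap with ALAS1/2-KO lower were found for 11.4% of all genes. The fitted log2 fold change was -0.38 (SE 0.12, 95% interval -0.64 to -0.11). The difference did not pass the threshold (limma adjusted p = 0.103), and the exact two-sided permutation test over 35 regroupings gave p = 0.0286, the smallest it can give. Across the alternative settings the adjusted p ran from 0.0445, with limma array weights, to 0.851, with CPM from listed reads. With array weights 16.5% of all genes were called. The brain-enriched paralog Mapre3 rose from 29.9 ± 4.05 to 42.6 ± 1.93 CPM (log2 fold change 0.52, SE 0.11, limma adjusted p = 0.0351), 1 call among 5 end-binding and partner genes. For Mapre3, leaving out replicate 1 or 2 of WT, and replicate 2, 3 or 4 of ALAS1/2-KO, gave adjusted p between 0.0683 and 0.166. Scaling without the 20 most abundant and the mitochondrial transcripts ended the calls of Mapre3 (adjusted p = 0.081) and Gpam (0.0598). Limma without trend ended those of Mapre3 (0.0694), Gpam (0.0629) and Gys2 (0.0519). Mapre1 also has near-identical processed copies, so part of its reads may have been dropped or shared.

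**Figure D2:**
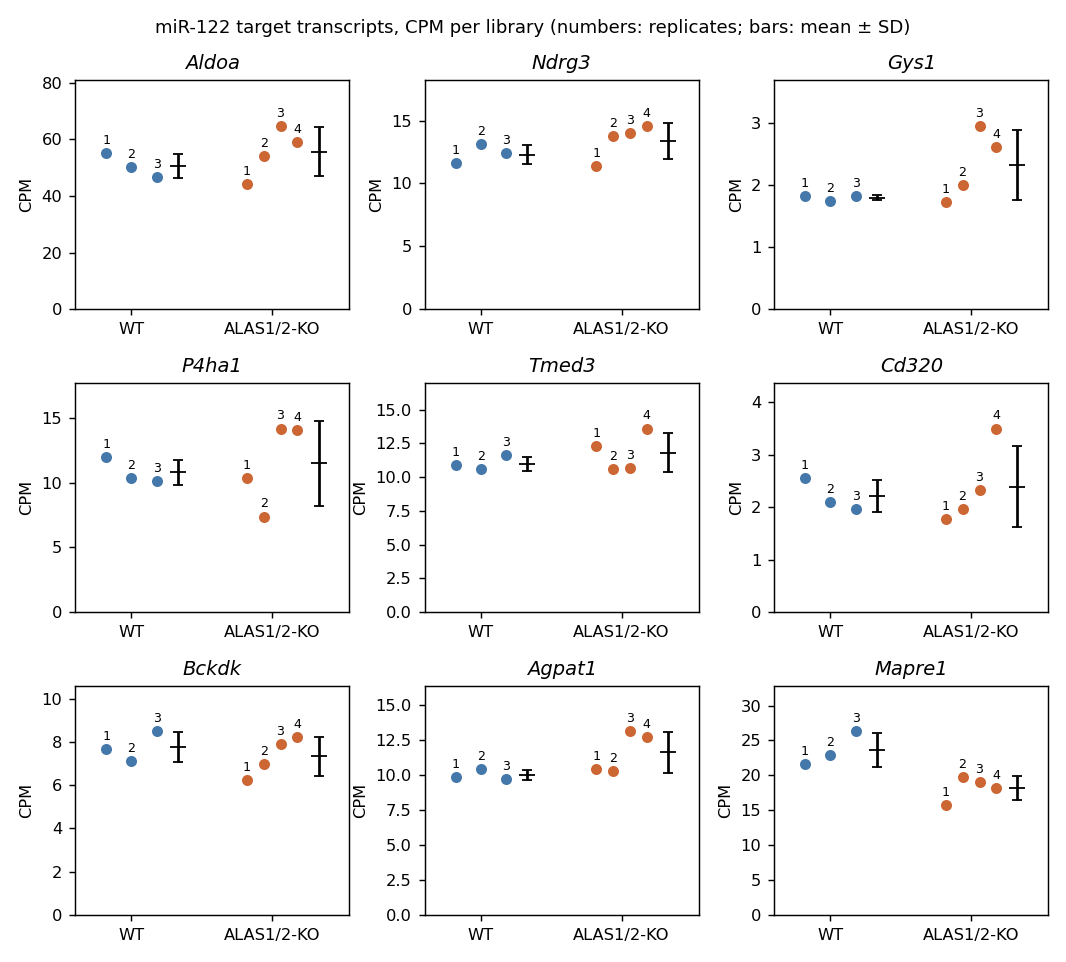
CPM of the 9 measured targets in each library, 1 panel per gene, with points numbered by replicate and a horizontal mark with error bar for the group mean and SD (WT n = 3, ALAS1/2-KO n = 4). In Mapre1 all ALAS1/2-KO libraries lie below all WT libraries, and in the other panels the groups overlap.

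**Figure D3:**
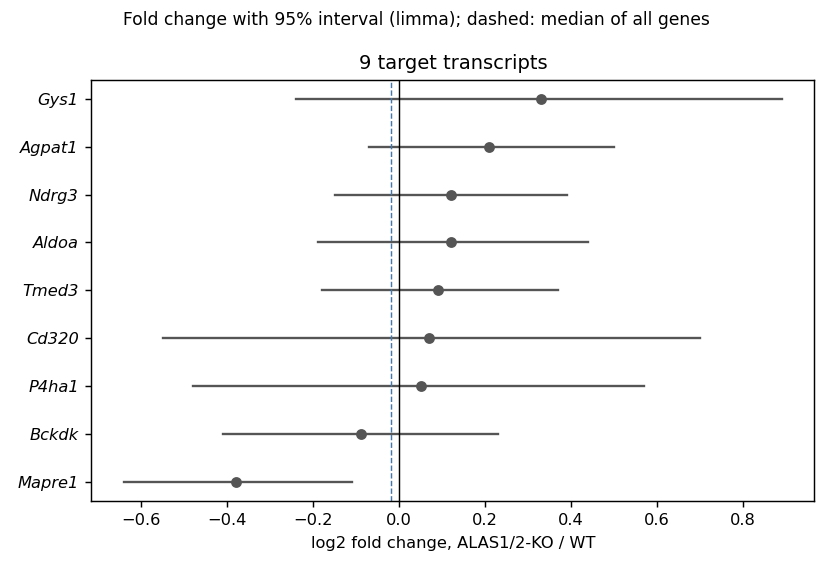
Log2 fold change, ALAS1/2-KO over WT (x axis), with its 95% interval from limma, for the 9 measured targets; the dashed line is the median of all genes. The interval of Mapre1 lies below 0 (-0.64 to -0.11) and those of the other 8 include 0.

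Levels can be set side by side only per length of transcript. In WT, Aldoa reached 17.4 ± 1.46 CPM per kilobase of merged exons, above every other target. Tmed3 (3.86), Agpat1 (3.33), Mapre1 (3.02), P4ha1 (2.63) and Bckdk (2.1) followed, then Ndrg3 (1.47), Cd320 (0.766) and Gys1 (0.375). On this length, the SD range of Mapre1 (SD 0.312 CPM per kilobase) overlapped with those of its neighbours Agpat1 and P4ha1. The SD ranges of Agpat1 and P4ha1 did not meet. Merged exons can be longer than the transcript with the longest UTR, and not equally so. They span 8388 against 4023 bases for Ndrg3, 3001 against 2190 for Agpat1 and 7811 against 7336 for Mapre1. The order of the targets and these overlaps therefore depend on the length used.

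Within the ALAS1/2-KO group the level of the targets differed between libraries. The median difference from the WT mean over the 9 targets was -0.12 on the log2 scale in replicate 1, -0.05 in replicate 2, 0.18 in replicate 3 and 0.31 in replicate 4. The 3 WT libraries lay between -0.04 and 0.0, but their own mean was the reference, which holds these medians near 0. They are therefore no measure of the spread to set beside ALAS1/2-KO. Over genes with a group mean of at least 1 CPM, each library's median absolute log2 deviation from the rest of its group was similar. It was 0.15 to 0.20 in WT and 0.16 to 0.21 in ALAS1/2-KO. Replicate 1 was the lowest ALAS1/2-KO library for 6 targets and replicate 2 for the other 3, while replicates 3 and 4 were the highest pair for 7 of 9. Without replicates 1 and 2, an alternative chosen after seeing the data, the median log2 fold change of the targets was 0.29 against 0.00 for all genes, and 0 of 9 were called where 9.33% of all genes were. Gys1 then stood at 0.61 (limma adjusted p = 0.143) and P4ha1 at 0.39 (0.106).

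Macrophage, endothelial and stellate markers summed lowest in replicate 1 and next lowest in replicate 2. The summed level of 24 macrophage, endothelial and stellate markers was 1262 to 1786 CPM in WT, and 316, 843, 1813 and 1569 CPM in ALAS1/2-KO replicates 1 to 4. Of the 8 macrophage markers 0 were called (743 to 1047 CPM in WT, 192 to 1234 in ALAS1/2-KO), with 0 at an unadjusted p under 0.05. Of the 8 endothelial markers 0 were called, and Pecam1 and Kdr were lower at an unadjusted p under 0.05 (288 to 353 and 71.5 to 311 CPM). Of the 8 stellate markers 0 were called, and 7 were lower at an unadjusted p under 0.05 (229.7 to 429 and 52.3 to 269 CPM). Over all 12105 genes 23.7% passed that level in either direction, 1440 of them lower. The 2 cholangiocyte markers in the table, Spp1 and Sox9, summed to 12.1 to 21.1 CPM in WT and 2.72 to 5.35 CPM in ALAS1/2-KO. Spp1 fell from 13.9 to 2.18 CPM (limma adjusted p = 0.0076), while Sox9 was not called (2.44 and 1.81 CPM, limma adjusted p = 0.762). Krt19, Krt7, Epcam and Cftr have no row. The 3 markers listed for lymphocytes, Ptprc, Cd79a and Cd79b, summed to 22.3 to 34.7 CPM in WT and 6.05 to 29.0 CPM in ALAS1/2-KO. Ptprc made up most of it (means 22.3 and 18.8 CPM, limma adjusted p = 0.658), so the sum says little about Cd79a and Cd79b. Cd79a fell from 2.61 to 0.568 CPM (limma adjusted p = 0.0335), and Cd79b stood at 1.58 and 0.845 CPM (0.304). The 4 globins, of which Hbb-bt fell (limma adjusted p = 0.0483), summed to 11.3 to 41.3 and 2.75 to 7.39 CPM. Several targets, Gys1 and P4ha1 among them, are expressed outside hepatocytes, and the part of other cells in their values was not tested. In bulk RNA, fewer cells of a type and less RNA per cell cannot be told apart.

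**Figure D4:**
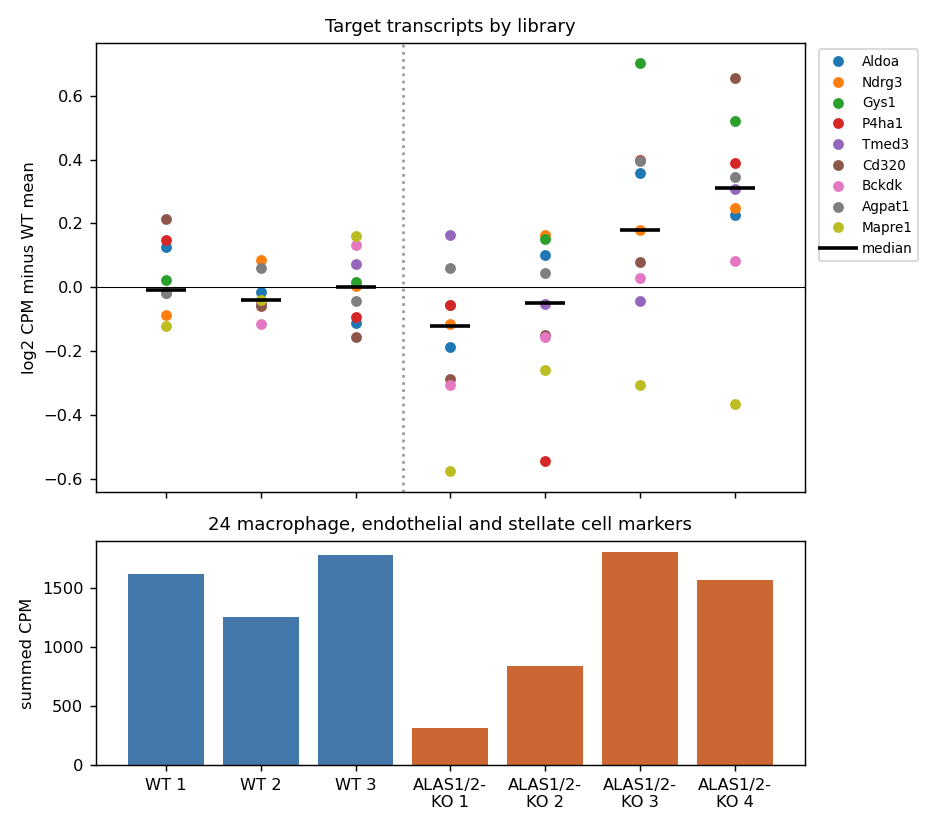
Difference of each target from its WT mean (log2) in each library, with the median as a bar, above the summed CPM of 24 macrophage, endothelial and stellate markers in the same library. Replicates 1 and 2 of ALAS1/2-KO have target medians of -0.12 and -0.05 and marker sums of 316 and 843 CPM, and replicates 3 and 4 have 0.18 and 0.31 with 1813 and 1569 CPM.

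The scaling of the libraries also bears on the sign of these values. Library sizes behind the deposited values were 0.801 to 1.003 times the listed reads for WT, and 1.069 to 1.184 times for ALAS1/2-KO. With CPM computed from the listed reads instead, the median of all genes moved to 0.32, and 22.6% of genes were called. Aldoa, Ndrg3 and Agpat1 were then called (log2 fold changes 0.46, 0.45 and 0.54, limma adjusted p = 0.0386, 0.0444 and 0.0304). Relative to the shifted median they stood at 0.14, 0.14 and 0.23, Gys1 at 0.34 and Mapre1 at -0.36.

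Further transcripts reported as miR-122 targets, from a list of 31 symbols, were read in the same way. Of 26 tested, 1 rose, Ccng1, and 0 fell, where 2.91% of all genes were called higher and 2.19% lower. At an unadjusted p under 0.05 there were 5 higher and 2 lower, against 1429 higher and 1440 lower of all 12105 genes. The log2 fold change was above 0 for 10 of 26 (38.5%, against 48% of all genes), with a median of -0.15. Of the 26, 21 held a seed match in the longest UTR, 6 of them an 8mer.

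Ccng1 encodes cyclin G1, a target of p53 as well as of miR-122. Its 3′ UTR holds an 8mer at chr11:40749040-40749069 (mm10, minus strand), shown because it is the 1 called gene of this list.
Ccng1 8mer: ggcttgataaaACACTCCAgacatttttac

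Ccng1 measured 21, 20.7 and 18.9 CPM in WT against 40.8, 39.8, 32.6 and 30.1 in ALAS1/2-KO. Every ALAS1/2-KO library was above every WT library, as for 11.3% of all genes, and replicates 1 and 2, the lowest for most of the 9 targets, were here the highest. The rise was 1.76-fold (log2 fold change 0.82, SE 0.13, 95% interval 0.52 to 1.11, limma adjusted p = 0.0147). It lost the call without WT replicate 2 (adjusted p = 0.0757). Noct, a circadian phosphatase and reported target, stood at 20.8 ± 7.86 CPM in WT against 42.2 ± 9.62 in ALAS1/2-KO (log2 fold change 1.05, limma adjusted p = 0.0731), and passed without WT replicate 1 (0.0396), with array weights (0.0157) and with CPM from listed reads (0.00881).

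All genes with a miR-122 seed match were then described by their longest site. Of 369 tested genes with an 8mer, 18 were called higher (4.88%) and 6 lower (1.63%), where 2.91% and 2.06% of all 11354 tested genes with a UTR were. Of 652 genes with a 7mer-m8 at best, 1.99% were higher and 1.53% lower, and of 799 with a 7mer-A1 at best, 2.75% and 1.63%. The median log2 fold change was 0.02 for 8mer genes, 0.01 for 7mer-m8, -0.01 for 7mer-A1 and -0.02 for genes with none. Genes with an 8mer had longer UTRs, with a median of 2803 bases against 998 bases for genes without a site. Their median level was lower, at 8.72 CPM against 12.7 CPM, and no test of the classes was made. The number of called 8mer genes moved with single libraries, from 1 to 28 when each was left out in turn. The number over all genes then moved from 100 to 802.

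Among the called 8mer genes, named after their values were seen, were both metabolic and signalling genes. Ces2g, a carboxylesterase, rose from 37.9 ± 2.12 to 72.0 ± 8.06 CPM (log2 fold change 0.92, SE 0.11, limma adjusted p = 0.00503), with the limit that reads may be split among close Ces2 copies. Ppp1r9a, which encodes the scaffold neurabin, rose from 11.1 to 20.9 CPM (0.91, limma adjusted p = 0.00798, and 0.0601 without WT replicate 2). Lifr, the receptor of leukemia inhibitory factor, fell from 1460 ± 82.6 to 731 ± 172 CPM (-1.03, limma adjusted p = 0.0218). The Lifr call was lost when WT replicate 1, 2 or 3 was left out (0.0621, 0.118 and 0.0559), and also when replicate 4 of ALAS1/2-KO was (0.0531).

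**Figure D5:**
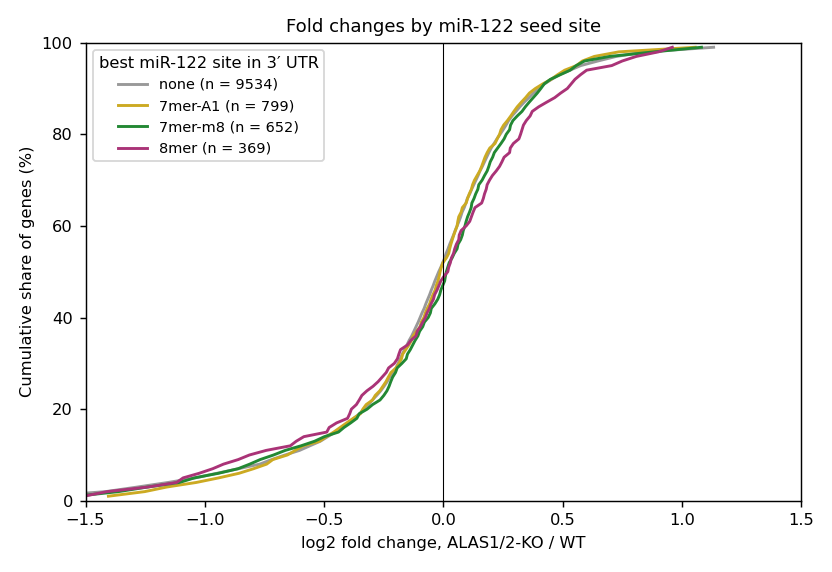
Cumulative share of tested genes (percent, y axis) by log2 fold change, ALAS1/2-KO over WT (x axis, shown from -1.5 to 1.5), with 1 line for each class of longest miR-122 seed match in the 3′ UTR. The lines cross 50% between -0.02 and 0.02. Between quartiles the 8mer line is the widest, at -0.29 and 0.25 against -0.25 and 0.18 for all genes with a UTR. At its ends it is not, with percentiles 1 and 99 at -1.507 and 0.959 against -1.675 and 1.132 for genes with no site. The 8mer genes also had a lower median level (8.72 against 12.3 CPM), and its part in the width was not tested.

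The genes that carry out silencing were measured in the same libraries. Of 13 genes for Argonautes, TNRC6 proteins and the microRNA processing enzymes, 0 were called with limma. An unadjusted p under 0.05 was passed by 4, where 23.7% of all genes passed it. Of these, 3 were higher (Ago3, Tnrc6b and Tnrc6c) and 1 was lower (Prkra). Prkra is also 1 of the 2 lower genes among the other reported targets above. Tnrc6a, the scaffold that Argonaute recruits, stood at 51.6 CPM in WT against 62.3 in ALAS1/2-KO. Dicer1, which cuts microRNA precursors, stood at 22 and 22.2 CPM, and Ago2, the slicing Argonaute, at 13.3 and 13.7 CPM. The level of miR-122 itself was not analysed here, because the libraries measure messenger RNA.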

How the data were processed

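RNA sequencing of isolated mouse hepatocytes gave 7 libraries, 3 WT and 4 ALAS1/2-KO. Groups came from the sample titles, and the columns headed AL were read as ALAS1/2-KO. Per the labels' protocols, libraries were made from total RNA with the TruSeq RNA kit. Reads were handled with cutadapt and HISAT2 on build mm10, per the submitters' processing notes. Tool versions, counter, annotation and strand handling: not given in the sources used here. The authors deposited log2 CPM values for 12151 genes. Taking these off the log2 scale and subtracting a common floor of 0.0676 CPM gave whole reads for 100% of values, within 0.01 reads.

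The 9 targets and the gene lists were chosen with earlier results of these data known. Genes with at least 1 CPM in 3 libraries were tested on the deposited log2 values with limma 3.58.1 (trend, robust) in R 4.3.3, with Benjamini-Hochberg adjustment over 12105 genes and a threshold of 0.05. Single genes also had an exact two-sided permutation test. The procedure was tested on simulated data. Symbols were matched to GENCODE M21 (mm10) for 12082 genes. Named are all targets, Alas1 and Alas2, and of the other reported targets and each list of paralogs and partners the called genes, or the 2 most abundant. Noct, Ago2, Ago3, Tnrc6b, Tnrc6c, Prkra, the called 8mer genes and single marker genes were named after their values were seen. Alternatives were other pseudocounts, filters and scalings, array weights, voom, no trend, a replicate block and leaving out libraries. Some genes of the lists are not reported here.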

Additional observations from a re-analysis of the deposited data

How the results depend on the processing

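Of 169 values of single targets under the alternatives, 154 kept direction and side of the threshold, 4 newly passed it, 0 lost it and 11 changed sign. P4ha1 turned to -0.02 with a scaling that leaves out mitochondrial and the top 20 genes, -0.07 with a replicate block, -2.1e-05 without WT replicate 3, and -0.07 without ALAS1/2-KO replicate 3 or 4, with a range of -0.07 to 0.24 over single libraries left out. Cd320 turned to -0.12 with the block, -0.004 without WT replicate 3 and -0.12 without ALAS1/2-KO replicate 4. Bckdk turned to 0.25 with CPM from listed reads, 0.05 with array weights and 0.06 without ALAS1/2-KO replicates 1 and 2. The cause was not tested.

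The number of targets called (0) was 3 with listed reads, 1 with array weights and 0 to 0 when single libraries were left out. Their median (0.09) was 0.43 with listed reads, 0.29 without ALAS1/2-KO replicates 1 and 2, and 0.02 to 0.20 on leaving out single libraries. The 617 genes called became 2739 with listed reads, 306 without trend, 2001 with array weights, 72 with the replicate block, 1130 without ALAS1/2-KO replicates 1 and 2, and 100 to 802 without single libraries. Other reported targets called (1 of 26) became 7, 5, 0 and 3 with listed reads, array weights, block and without those replicates, and 0 to 2 without single libraries. Their median (-0.15) was 0.18 with listed reads, 0.04 with array weights, 0.11 without those replicates and -0.20 to -0.07 without single libraries. Called 8mer genes (24 of 369) became 82 with listed reads, 9 without trend, 61 with array weights, 1 with the block, 39 without those replicates and 1 to 28 without single libraries. Of all genes, 5.10% were called in the main fit, 22.6% with listed reads, 16.5% with array weights and 9.33% without those replicates. In these alternative settings the counts of other reported targets and of 8mer genes rose along with the count over all genes. That did not hold in every setting. Without WT replicate 1 the genes called fell to 231, while other reported targets called rose to 2. The 8mer median was 0.35 with listed reads and -0.03 to 0.06 without single libraries.

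The block pairs replicates 1 to 3 and drops ALAS1/2-KO replicate 4. Same-numbered libraries correlated in their deviations at -0.03, 0.05 and 0.18, so the numbers were not taken as pairs. With the block, Ccng1 (limma adjusted p = 0.0504), Gys2 (0.139), Ppm1k (0.093), Gpam (0.148), Mapre3 (0.146), Ces2g (0.0527) and Lifr (0.0963) were no longer called. Low counts limit Gys1 and Cd320.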
